A study of Bos taurus with 8 samples.

Results

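The genes described here encode ion channels and channel partners that have been linked to the sensing of load: *Piezo1* and *Piezo2*, the TRP channel genes *Trpv4*, *Trpc1* and *Trpm7*, the polycystin genes *Pkd1* and *Pkd2*, the pannexin gene *Panx3* and the gap junction gene *Gja1*. They were chosen by name, and each of the 9 had exactly 1 row among the 24596 genes of the count table. RNA-Seq was carried out on wild-type chondrocytes from knee joints of calves 1 to 2 weeks old. Superficial zone chondrocytes (SZCs) came from the lubricin-rich surface slice and deep zone chondrocytes (DZCs) from a slice far below it in the same cores. After digestion, both were cultured for 3 days in DMEM/F12 with 10% FBS, so the levels are those of plated cells and not of loaded cartilage. There were 2 libraries per zone, which the methods call biological duplicates. The sources used here do not say whether they came from separate animals, and the p-values measure only the spread between these libraries. Slices were pooled by joint, and in such bulk samples fewer cells of a type and less RNA per cell cannot be told apart.

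Chondrocytes are embedded in a matrix that is compressed with every step, and they answer deformation and changes in osmolarity with calcium influx. The PIEZO proteins are large channels opened directly by membrane tension, and TRPV4 is a calcium-permeable channel that responds to osmotic stress and to moderate strain. TRPC1 and TRPM7 are cation channels of the same superfamily, the latter with a kinase domain at its end. Polycystin-1 is a very large receptor-like membrane protein that pairs with the channel polycystin-2, and the complex is best known from the primary cilium. The product of *Gja1* is the main connexin of gap junctions and hemichannels in skeletal cells, and pannexin 3 is a channel known from hypertrophic chondrocytes and osteoblasts.

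Library totals lay between 19918970 and 21890549 counts. All 8 chondrocyte markers were detected, with *Col2a1*, the major cartilage collagen gene, taking 7.18% and 6.31% of counts in SZCs and 24.5% and 12.9% in DZCs. Of the 8, 4 were lower in both SZC libraries than in both DZC libraries. Only *Matn3* was called, higher in DZCs (1067 and 1798 counts in SZCs, 2991 and 7441 in DZCs, exact test FDR 0.00212). *Matn1* alone had a higher fitted level in SZCs (324 and 476 counts, against 252 and 158), though its scaled levels overlapped. All 5 superficial zone markers (*Prg4*, *Vit*, *Epha3*, *Wif1* and *Thbs4*) were called higher in SZCs by edgeR's exact test, and 4 by DESeq2. The study reported these genes as higher in SZCs from this same comparison, so the result is no independent check of the labels. DZC replicate 1 stood apart from the other 3 libraries. The summed level of 5 markers of dividing cells (*Mki67*, *Top2a*, *Ccnb1*, *Cdk1*, *Aurkb*) was 13 CPM there, against 150 and 175 CPM in the SZC libraries and 264 CPM in DZC replicate 2 (CPM, counts scaled to library size after TMM adjustment). The summed level of 6 fibroblast markers (*Col1a1*, *Col1a2*, *Col3a1*, *Thy1*, *Pdpn*, *Pdgfra*) was 4414 CPM in DZC replicate 1, against 16980, 25170 and 14070 CPM in SZC replicates 1 and 2 and DZC replicate 2. None of these 11 markers was at 0 in any library. In the order SZC replicates 1 and 2, DZC replicates 1 and 2, the 8 immune markers summed to 19.4, 33.1, 6.72 and 15.8 CPM, with the B cell marker *Ms4a1* at 0 in all 4 libraries, and the 5 endothelial markers to 5.32, 10.6, 3.86 and 7.80 CPM. The 5 smooth muscle and pericyte markers summed to 20.2 and 109 CPM in SZC replicates 1 and 2 and to 56.1 and 334 CPM in DZC replicates 1 and 2, mostly from *Acta2*, the smooth muscle actin gene (11.5, 93.2, 53.2 and 311 CPM). Of the 12857 genes tested with edgeR's exact test, 377 (2.93%) passed an FDR of 0.05 and 1169 (9.09%) had an unadjusted p below 0.05. Those past the FDR were 287 (2.23%) with a higher level in SZCs and 90 (0.700%) with a higher level in DZCs. Scaling to library totals alone gave a split of 288 to 44.

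Of the 9 genes, 8 passed the filter on low counts and 1 of them, *Pkd1*, differed between the zones at an FDR of 0.05, against the background of 2.93%. Its level was higher in SZCs. DESeq2, which called 3.09% of the genes, also called it. The other 7 did not pass the threshold. Their fitted differences ranged from 1.33-fold higher in DZCs for *Trpc1* to 2.06-fold higher in SZCs for *Gja1*. Both SZC libraries lay above both DZC libraries for *Pkd1* and *Piezo2* (2 of 8, where 21.0% of all tested genes did so), and below them for *Trpc1* (1 of 8, background 20.5%). Together these 3 are the genes without overlap between zones, and 41.5% of all tested genes had none. For the remaining 5 the zones overlapped. The median log2 fold change (log2FC), SZCs over DZCs, of the 8 genes was 0.35, and that of all tested genes was -0.04.

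**Figure D1:**
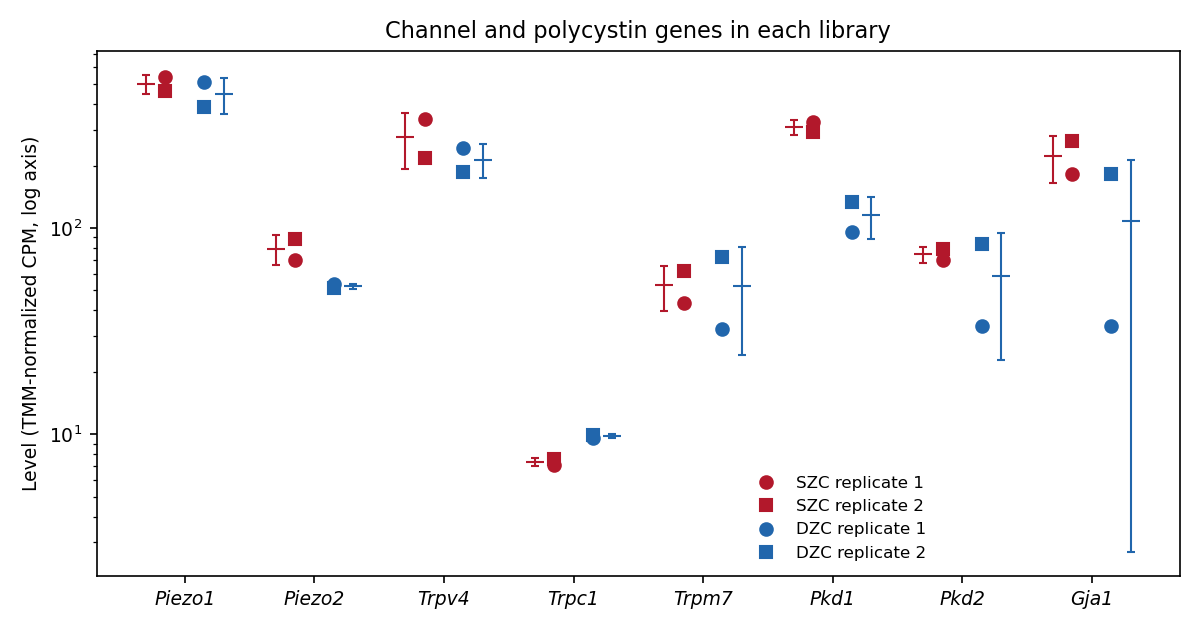
Level of the 8 tested genes in each library, as TMM-normalized CPM on a log axis, with SZC libraries in red, DZC libraries in blue, circles for replicate 1 and squares for replicate 2. Horizontal marks with bars give the mean and SD of the 2 libraries of a zone. The SZC and DZC points of *Pkd1* are well separated (291 and 327 CPM against 96.2 and 134 CPM), and the DZC points of *Gja1* lie far apart. Heights cannot be compared between genes, as levels are not per length.

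*Pkd1* (ENSBTAG00000020619 in the count table), the gene of the receptor-like polycystin, was counted 7199 and 6747 times in SZC replicates 1 and 2 and 1546 and 2984 times in DZC replicates 1 and 2. The corresponding levels were 327, 291, 96.2 and 134 CPM. Both SZC libraries lay above both DZC libraries, and the gap between zones exceeded the gap between replicates of either zone. Levels averaged 309 ± 25.7 CPM for SZCs versus 115 ± 26.6 CPM for DZCs (SD, n = 2 each). The log2FC was 1.43 (standard error, s.e., 0.37, 95% interval 0.69 to 2.16), a 2.69-fold higher level in SZCs (exact test FDR 0.0105). With each library left out in turn, the log2FC stayed between 1.21 and 1.70. Over the 9 alternatives, edgeR and DESeq2 gave *Pkd1* FDR values from 0.00246 to 0.26 and 7 called it. The highest FDR came from edgeR's quasi-likelihood test, which called 0 genes in all (1126 at an unadjusted p below 0.05). With edgeR's exact test and a library left out, the FDR was 1 without SZC replicate 1 and 0.46 without SZC replicate 2, fits in which the lone SZC library is assumed to vary like the DZC pair.

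The reads were counted without regard to strand, so reads of a gene that overlaps *Pkd1* could not be told apart from its own. In RefSeq's annotation of a later assembly (ARS-UCD 2.0), *Pkd1* overlaps the microRNA gene *Mir1225* and lies beside *Tsc2*, a tuberous sclerosis gene, and *Rab26*. *Mir1225* had 0 counts in every library. *Tsc2* did not pass the test, at 56.2 and 56.5 CPM in SZCs and 64.2 and 48.1 CPM in DZCs, with a log2FC of 0.00 (s.e. 0.35). *Rab26*, a vesicle GTPase gene, was at 5.54 and 4.09 CPM in SZCs and 0.995 and 1.52 CPM in DZCs. Its log2FC was 1.92 (s.e. 0.62, exact test FDR 0.0769), so it did not pass, and its level was a small part of that of *Pkd1* in every library.

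*Pkd2* (ENSBTAG00000020031), which encodes the channel partner of polycystin-1, was at 69.8 and 79.1 CPM in SZCs and at 33.3 and 83.8 CPM in DZCs. DZC replicate 2 was the highest of all libraries and DZC replicate 1 the lowest, so the zones overlapped. The log2FC was 0.34 (s.e. 0.51, 95% interval -0.65 to 1.34, exact test FDR 0.998). A difference of up to 2.53-fold in favour of SZCs lay within the interval. The value rested on the DZC library used, with log2FCs of -0.17 without DZC replicate 1 and 1.17 without DZC replicate 2 (exact test FDR 0.00194 in the latter case, with the lone DZC library assumed to vary like the SZC pair).

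The ratio of the polycystin genes does not depend on how libraries were scaled. The log2 ratio of *Pkd1* to *Pkd2* counts within a library was 2.23 and 1.88 in SZCs and 1.53 and 0.67 in DZCs. Both SZC values lay above both DZC values, and the means were 2.05 ± 0.25 (SD, n = 2) and 1.10 ± 0.60 (SD, n = 2). The difference of 0.95 gave p = 0.333 in an exact two-sided permutation test, the smallest p that 2 libraries against 2 allow. The test could therefore not reach 0.05 whatever the values.

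**Figure D2:**
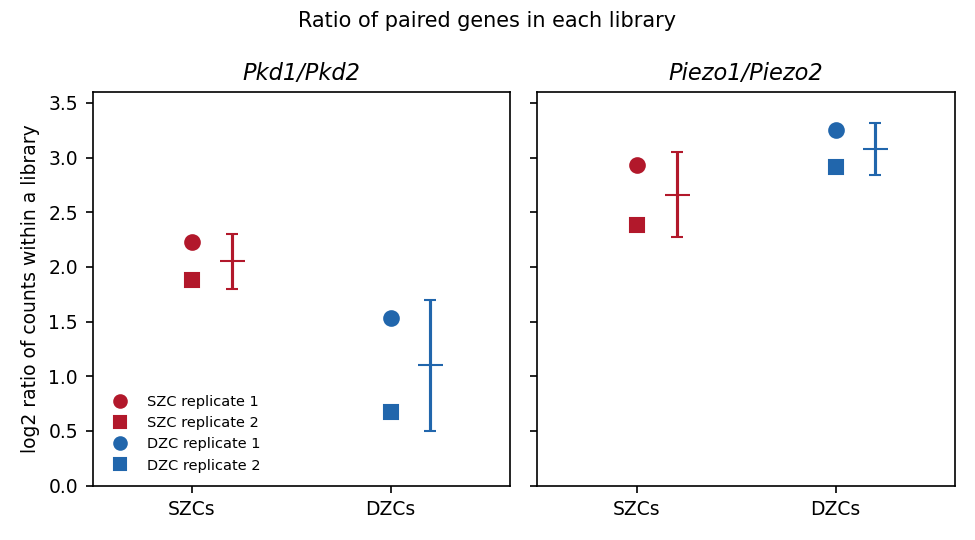
Log2 ratio of counts within each library for *Pkd1* over *Pkd2* (left) and *Piezo1* over *Piezo2* (right), by zone, with the mean and SD of the 2 libraries beside the points. The SZC values of *Pkd1*/*Pkd2* (1.88 and 2.23) lie above the DZC values (0.67 and 1.53), while those of *Piezo1*/*Piezo2* overlap.

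*Piezo1* (ENSBTAG00000020944) was at 537 and 460 CPM in SZCs and at 507 and 384 CPM in DZCs. The zones overlapped, and the means of 499 ± 54.9 and 445 ± 87.5 CPM (SD, n = 2 each) differed by less than the spread between DZC libraries. Its log2FC was 0.16 (s.e. 0.38), with a 95% interval from 0.67-fold to 1.88-fold. That interval leaves out a doubling only under this model, with TMM scaling and the fitted dispersion taken as known. Library totals alone gave a log2FC of 0.50. In RefSeq's annotation *Piezo1* overlaps *Ctu2*, a tRNA modification gene, which was at 10.9 and 13.1 CPM in SZCs and 14.8 and 11.2 CPM in DZCs, a small part of the *Piezo1* level. *Piezo2* (ENSBTAG00000011171) was at 70.3 and 88.4 CPM in SZCs and at 53.3 and 51.1 CPM in DZCs. Loci without a gene name overlap *Piezo2* in RefSeq's annotation, and their levels are not given here. Every SZC value of *Piezo2* lay above every DZC value. The fitted difference was 1.52-fold in favour of SZCs (log2FC 0.60, s.e. 0.34), with an unadjusted p of 0.0792 and an FDR of 0.676 by edgeR's exact test. Its direction was the same under each alternative and with each library left out (log2FCs from 0.43 to 0.91), and its FDR never fell below 0.173 in these edgeR and DESeq2 fits. The log2 ratio of *Piezo1* to *Piezo2* was 2.93 and 2.38 in SZCs and 3.25 and 2.91 in DZCs, a difference of -0.42 between zone means (exact two-sided permutation test with the same limit, p = 0.667).

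Of the TRP channel genes, *Trpv4* (ENSBTAG00000000031) was at 336 and 217 CPM in SZCs and at 243 and 186 CPM in DZCs. SZC replicate 2 fell between the DZC libraries, and the gap between the SZC replicates, 1.54-fold, exceeded the fitted difference between zones of 1.29-fold. The log2FC was 0.37 (s.e. 0.41, 95% interval -0.43 to 1.16, exact test FDR 0.979). Leaving out SZC replicate 1 brought it down to 0.01. *Trpc1* (ENSBTAG00000002232) had the fewest counts of the 8 tested genes, 157 and 176 in SZCs and 155 and 222 in DZCs. Its levels of 7.13 and 7.58 CPM in SZCs lay below those of 9.64 and 9.95 CPM in DZCs, and replicates differed by 1.06-fold in SZCs and 1.03-fold in DZCs. Of the 8 genes, it alone had a negative log2FC, -0.41 (s.e. 0.45, exact test FDR 0.977), and the value was between -0.46 and -0.11 under all alternatives and left-out libraries.

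*Trpm7* (ENSBTAG00000031165), the channel kinase gene, was at 43.4 and 62.0 CPM in SZCs and at 32.5 and 72.4 CPM in DZCs. The DZC libraries were thus the lowest and the highest, with the SZC libraries between them. The zone means were nearly equal, at 52.7 ± 13.1 and 52.5 ± 28.2 CPM (SD, n = 2 each), and the log2FC was 0.01 (s.e. 0.49). Its 95% interval, 0.51-fold to 1.96-fold, reached nearly 2 in favour of either zone. Leaving out DZC replicate 1 gave a log2FC of -0.45 and leaving out DZC replicate 2 gave 0.71.

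**Figure D3:**
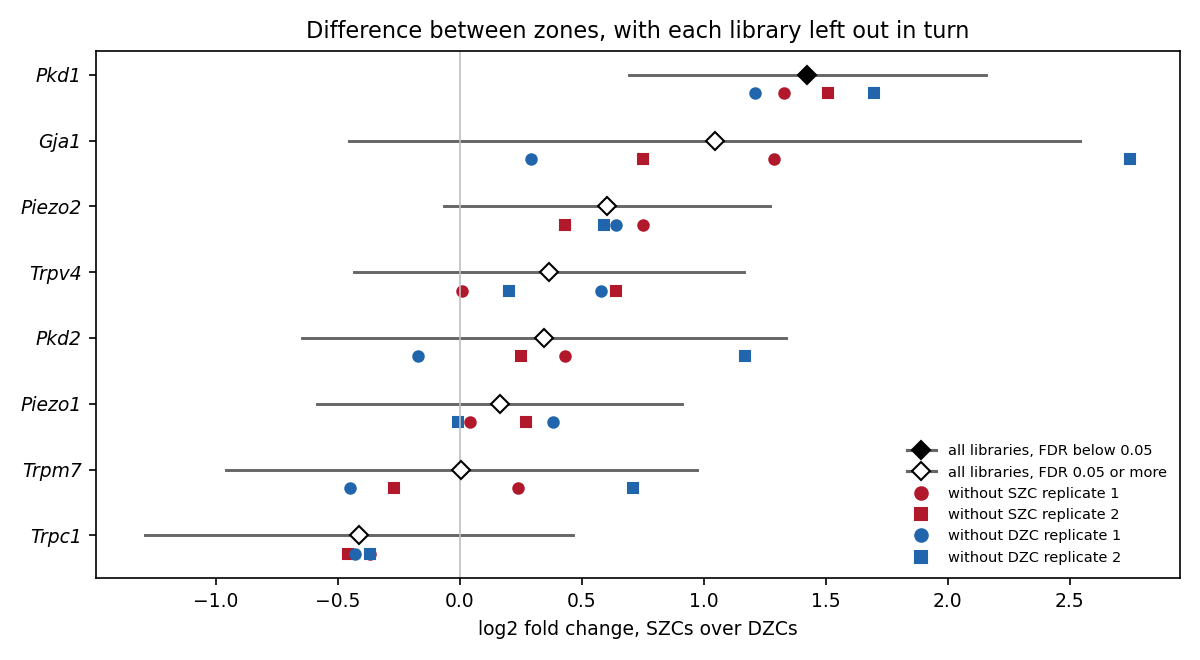
Log2 fold change of SZCs over DZCs for the 8 tested genes (diamonds, filled where the FDR by edgeR's exact test was below 0.05) with 95% intervals (lines), and below each the value with a library left out (red for SZC, blue for DZC, circles for replicate 1, squares for replicate 2). The 4 left-out values of *Pkd1* stay between 1.21 and 1.70, whereas those of *Gja1* run from 0.29 to 2.75, and those of *Pkd2*, *Trpm7* and *Piezo1* fall on both sides of 0.

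*Gja1* (ENSBTAG00000001835), the gap junction gene, varied more between the DZC libraries than any other of these genes. SZC replicates 1 and 2 held 4001 and 6121 counts, DZC replicate 1 held 539 and DZC replicate 2 held 4071. Its levels were 182 and 264 CPM in SZCs and 33.5 and 182 CPM in DZCs, so that DZC replicate 2 matched SZC replicate 1 while DZC replicate 1 lay far below the other 3. Means were 223 ± 58.0 CPM for SZCs and 108 ± 105 CPM for DZCs (SD, n = 2 each), which gave a log2FC of 1.04 (s.e. 0.76, exact test FDR 0.86). The 95% interval, from 0.73-fold to 5.83-fold, spans both no difference and a large one. With DZC replicate 1 left out the log2FC was 0.29, and with DZC replicate 2 left out it was 2.75 (exact test FDR 8.7e-11, in which the lone DZC library is assumed to vary like the SZC pair).

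The gap between the DZC libraries separated these genes into groups. From DZC replicate 1 to DZC replicate 2, *Gja1* was 5.44-fold higher, a gap exceeded by 5.04% of all tested genes. *Pkd2* was 2.51-fold higher (15.1% of genes had a larger gap in either direction) and *Trpm7* 2.22-fold higher (19.5%). *Pkd1* was 1.39-fold higher (56.6%), close to the median absolute gap of all tested genes, 0.56 on the log2 scale. *Piezo2* and *Trpc1* differed by 1.04-fold and 1.03-fold, and *Piezo1* and *Trpv4* were 1.32-fold and 1.31-fold lower in DZC replicate 2. *Pkd1*, *Pkd2*, *Trpm7* and *Gja1* were at their lowest in DZC replicate 1 (4 of 8, where 36.5% of all tested genes were lowest in that library). The summed fibroblast and dividing cell markers given above were also lowest there, as were the immune, endothelial and bone marker sums. The chondrocyte marker sum was highest there, at 472500 CPM against 118300 and 115900 CPM in SZCs and 173000 CPM in DZC replicate 2. The smooth muscle and pericyte sum was lowest in SZC replicate 1. The fibroblast and immune sums, like *Pkd1*, were higher in both SZC libraries than in both DZC libraries. All 5 tested immune markers were lowest in DZC replicate 1. Among the 6 fibroblast markers, 5 were lowest in DZC replicate 1, 3 had both SZC libraries above both DZC libraries, and *Pdpn* went the other way (492, 453, 1103 and 762 CPM in SZC replicates 1 and 2 and DZC replicates 1 and 2). The part of these markers in the levels of *Pkd1*, *Gja1*, *Pkd2* and *Trpm7* was not tested.

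**Figure D4:**
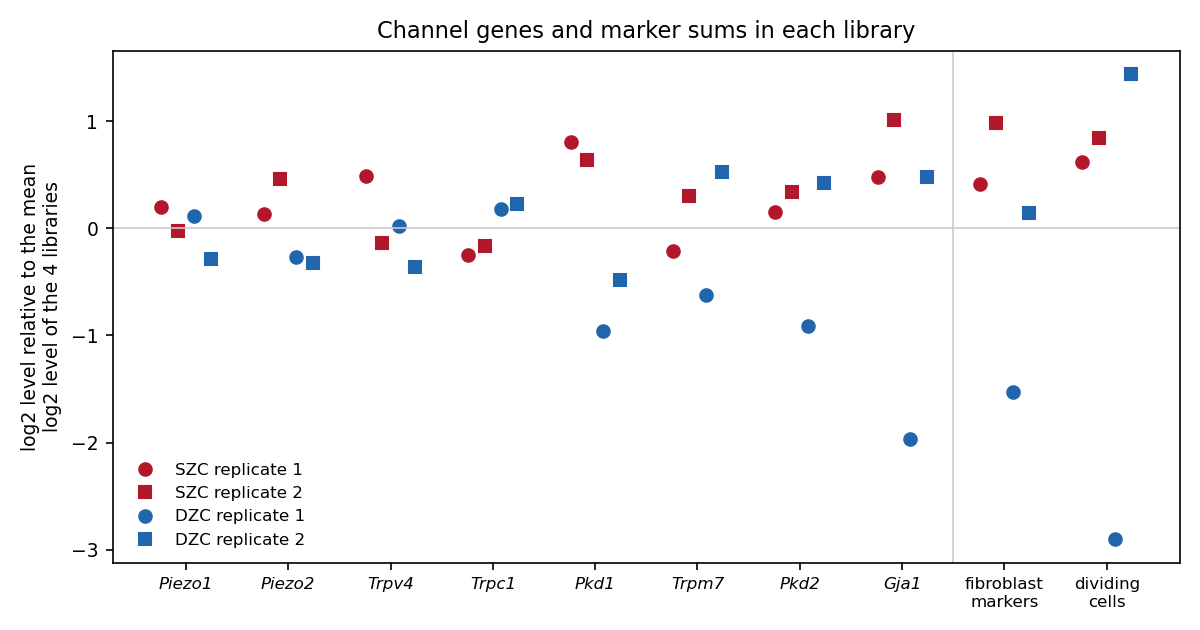
Log2 level of each tested gene in each library relative to its mean log2 level over the 4 libraries, and the same for the summed CPM of 6 fibroblast markers and of 5 markers of dividing cells (right of the vertical line). DZC replicate 1 (blue circles) is the lowest library for *Gja1*, *Pkd2*, *Trpm7*, *Pkd1* and both marker sums, and lies within 0.27 of the mean for *Piezo1*, *Piezo2*, *Trpv4* and *Trpc1*. The chondrocyte marker sum, not drawn, was highest in DZC replicate 1 (1.37 on this scale).

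*Panx3* (ENSBTAG00000009409) was at the limit of detection and was left out of the test by the filter on low counts. SZC replicates 1 and 2 held 1 and 0 counts, DZC replicate 1 held 0 and DZC replicate 2 held 13. A count of 0 allows levels of up to 0.129 CPM in SZC replicate 2 and 0.187 CPM in DZC replicate 1 (taking 3 counts as the limit, for counting error only), and the level in DZC replicate 2 was 0.583 CPM. At that level, 9.37 counts would have been found in DZC replicate 1. The 10 hypertrophic and bone markers summed to 113, 110, 35.2 and 274 CPM in SZC replicates 1 and 2 and DZC replicates 1 and 2. Of these, *Mmp13*, a collagenase gene of hypertrophic cartilage, was counted 0, 0, 0 and 468 times in the same order, *Ibsp* 1, 2, 0 and 268 times and *Col10a1* 23, 18, 0 and 221 times. Most of the sum came from *Spp1*, the osteopontin gene, at 108, 102, 18.9 and 201 CPM. Of the 10 markers, 6 were highest in DZC replicate 2, among them also *Alpl*, the alkaline phosphatase gene, with 10, 5, 1 and 445 counts, and *Sp7*, an osteoblast transcription factor gene, with 2, 8, 1 and 140 counts. The other 4 were not, and no library held over 6 counts of *Bglap* or of *Dmp1*. *Ihh*, a hedgehog ligand gene, was highest in DZC replicate 1 (0.591, 0.215, 12.1 and 2.15 CPM) and was the marker of this list called between zones, higher in DZCs (log2FC -4.12, exact test FDR 0.016), and *Phospho1*, a phosphatase gene of mineralization, was highest in SZC replicate 2 (2.32, 5.77, 4.04 and 2.20 CPM). The part of these markers in the *Panx3* counts was not tested. No difference between zones can be read from a gene with more than 1 count in a single library only.

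Across all tested genes, the patterns closest to that of *Pkd1* over the 4 libraries, by the distance between mean-centred log2 CPM values, were those of *Camk1*, *Mcc* and *Lgals4* (distances 0.0858, 0.0976 and 0.107). *Camk1*, a calmodulin-dependent kinase gene, was at 7.50 and 7.02 CPM in SZCs and 2.12 and 3.0 CPM in DZCs (log2FC 1.50, exact test FDR 0.15). *Mcc* was at 34.6 and 29.3 CPM and 10.5 and 13.4 CPM (log2FC 1.42, exact test FDR 0.0114). *Lgals4*, a galectin gene, was at 3.95 and 3.23 CPM and 1.12 and 1.61 CPM (log2FC 1.38, exact test FDR 0.407). With 4 libraries such likeness describes these samples only.

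Other genes of the same families gave no call by edgeR's exact test or by DESeq2. Of 21 other TRP channel genes, 9 were tested and 0 passed (2 at an unadjusted p below 0.05, against 9.09% of all tested genes), with a median log2FC of 0.65. The 2 were *Mcoln3*, a lysosomal channel gene, and *Trpm3*. *Mcoln3* had 25 and 13 counts in SZCs and 1 and 2 counts in DZCs (log2FC 3.35, s.e. 1.09, exact test FDR 0.054). *Trpm3* had 11 and 30 counts in SZCs and 0 and 6 counts in DZCs. Both passed the low-count filter through the SZC libraries alone, so this share and median cannot be read as a zone difference. With each library left out in turn, the log2FC of *Trpm3* ranged from 1.72 to 7.21. The remaining 12 had too few counts, including *Trpv1* and *Trpa1*, each with 1 count over all 4 libraries. *Mcoln1*, also a lysosomal channel gene, had the most counts of the 9 and was at 24.1 and 18.1 CPM in SZCs and 27.6 and 18.0 CPM in DZCs. *Trpm4*, a sodium-conducting channel gene, was at 5.18 and 5.0 CPM in SZCs and 3.86 and 2.65 CPM in DZCs (log2FC 0.65, s.e. 0.56). Of the polycystin relatives, 5 of 8 had a row and 2 were tested, *Pkd1l3* (log2FC 0.26, s.e. 0.59) and *Pkd2l1* (-0.95, s.e. 0.68), neither at an unadjusted p below 0.05. Of the 12 genes of polycystin folding and export and of tuberous sclerosis, all 10 with a row were tested and 0 passed (0 at an unadjusted p below 0.05), with a median log2FC of -0.09. *Ganab*, which trims glycans on polycystins among other proteins, had a log2FC of -0.38 (s.e. 0.38). Of 30 other genes of mechanically or volume-gated channels and their partners, 16 were tested and 0 passed, with a median of -0.06. At an unadjusted p below 0.05 was 1, *Tmc8*, which also passed the filter through the SZC libraries alone. *Tmem63a*, an osmotically gated channel gene, had the most counts of the 16. It was at 128 and 144 CPM in SZCs and 160 and 129 CPM in DZCs. Of 23 other genes of connexins, pannexins and the junction scaffold, 4 were tested and 0 passed (0 at an unadjusted p below 0.05). These were *Tjp1* (log2FC 0.49, s.e. 0.38), *Panx1* (0.37, s.e. 0.43), *Gjc1* (0.56, s.e. 0.59) and *Panx2* (-0.09, s.e. 0.65), with a median of 0.43. Without DZC replicate 2, the log2FC was 0.86 for *Tjp1* and 1.34 for *Gjc1*, and without DZC replicate 1 it was 0.08 for *Gjc1*.

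No gene of the primary cilium, where polycystins are known to reside, passed by edgeR's exact test or DESeq2. Of 47 listed genes, the 44 with a row were all tested, 0 at an unadjusted p below 0.05, and the log2FCs ranged from -0.62 to 1.07 with a median of -0.11, beside -0.04 for all tested genes. *Tulp3*, which carries receptors into the cilium and had the most counts, was at 70.6 and 61.1 CPM in SZCs and 83.4 and 67.6 CPM in DZCs. *Invs*, a gene of the cilium base, had a log2FC of 0.32 (s.e. 0.36).

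Among genes of calcium entry, stores and pumps, 3 of 22 tested passed, all with a higher level in SZCs, where 2.23% of all tested genes did so; the list was written with earlier results known. Its median log2FC was 0.36. *Cacna1g* and *Cacna1h* encode T-type calcium channels, which open at small depolarizations. *Cacna1g* was at 16.6 and 12.2 CPM in SZCs and 0.622 and 3.27 CPM in DZCs, with a log2FC of 2.87 (s.e. 0.78, exact test FDR 0.0261). *Cacna1h* was at 185 and 125 CPM in SZCs and 69.6 and 35.4 CPM in DZCs, with a log2FC of 1.57 (s.e. 0.47, exact test FDR 0.042). *Atp2b1*, a calcium pump gene of the plasma membrane, was at 169 and 102 CPM in SZCs and 38.8 and 57.0 CPM in DZCs, with a log2FC of 1.50 (s.e. 0.43, exact test FDR 0.0256). *Atp2a2*, the main pump gene of the endoplasmic reticulum, was at 171 and 170 CPM in SZCs and 173 and 221 CPM in DZCs and did not pass. *Stim1*, the calcium sensor of the endoplasmic reticulum, did not pass (log2FC 0.23, s.e. 0.36).

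Of 16 tested genes of calmodulin, its kinases and calcineurin, 1 passed, against 2.93% of all tested genes, and the median log2FC was 0.18. *Ppp3ca*, a catalytic subunit of the calcium-dependent phosphatase calcineurin, was at 147 and 110 CPM in SZCs and 44.5 and 49.8 CPM in DZCs, a 2.72-fold higher level in SZCs (log2FC 1.45, s.e. 0.36, exact test FDR 0.00486). *Rcan1*, whose product binds calcineurin, did not pass (log2FC 0.34, s.e. 0.36). Of 10 tested genes of extracellular ATP, 0 passed by edgeR's exact test or DESeq2 and the median log2FC was 0.65. At an unadjusted p below 0.05 were 4 of them, where 9.09% of all tested genes were. These were the receptor genes *P2ry1* (26 and 23 counts in SZCs, 0 and 7 in DZCs) and *P2rx6* (39 and 22, 6 and 5), *Entpd2* and *Ankh*. *Entpd2* encodes an enzyme that degrades ATP (72 and 13, 6 and 5). *P2ry1*, *P2rx6* and *Entpd2* passed the low-count filter through the SZC libraries alone, so this share and median cannot be read as a zone difference. *Ankh*, an exporter gene, was at 319 and 161 CPM in SZCs and 120 and 124 CPM in DZCs (log2FC 0.97, s.e. 0.45, exact test FDR 0.425). Its log2FC was 0.39 without SZC replicate 1 and 1.38 without SZC replicate 2. Over the 9 alternatives, *Ppp3ca* and *Cacna1h* were each called in 8, *Cacna1g* in 6 and *Atp2b1* in 5, and the quasi-likelihood test called none of them. Scaling to library totals alone ended the calls of *Cacna1g* and *Atp2b1* (FDR 0.127 and 0.0643 by edgeR's exact test). As for *Pkd1*, the edgeR fits without SZC replicate 1 or without SZC replicate 2 called none of *Cacna1g*, *Cacna1h*, *Atp2b1* and *Ppp3ca*. With each library left out in turn, the log2FC ranged from 2.14 (without DZC replicate 1) to 4.53 (without DZC replicate 2) for *Cacna1g*, from 1.17 (without DZC replicate 2) to 2.14 (without DZC replicate 1) for *Cacna1h*, from 1.09 to 1.82 for *Atp2b1* and from 1.22 to 1.63 for *Ppp3ca*.

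**Figure D5:**
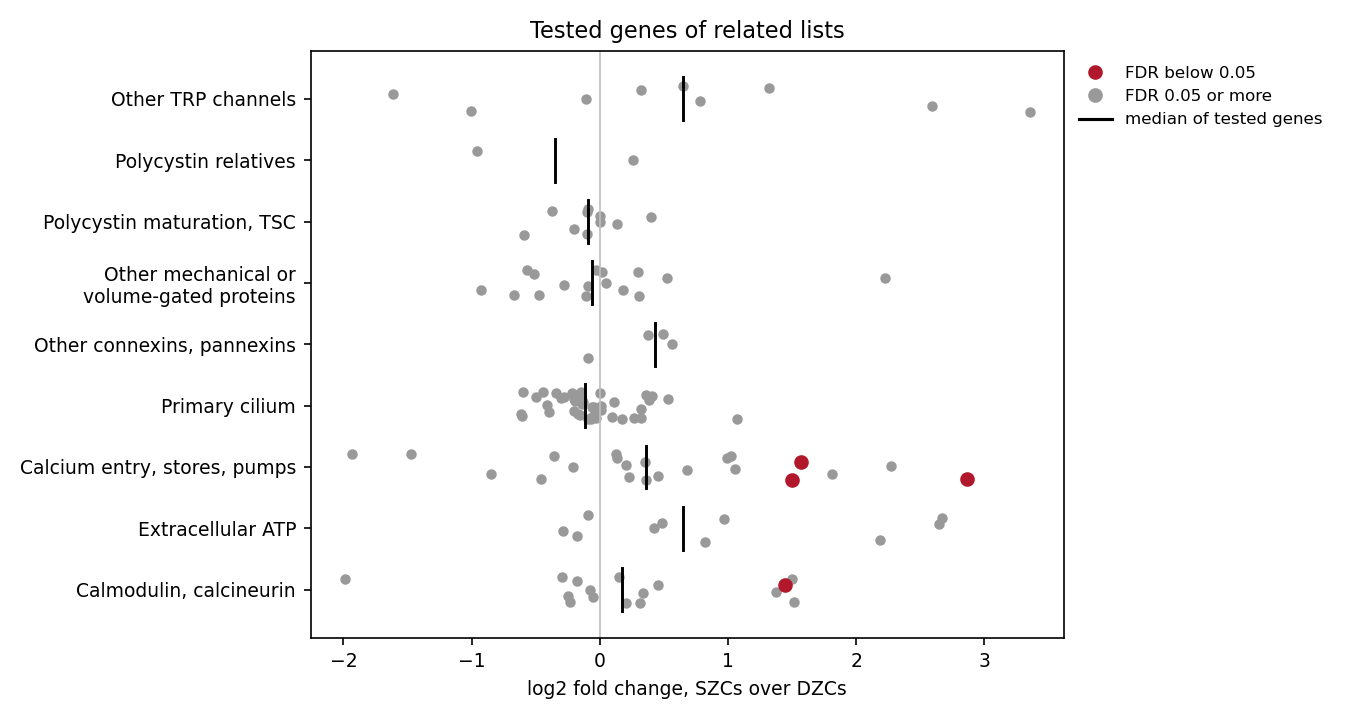
Log2 fold change of SZCs over DZCs for every tested gene of 9 related lists, with genes past an FDR of 0.05 by edgeR's exact test in red and the median of each list as a black bar. The 4 red points are *Cacna1g*, *Cacna1h* and *Atp2b1* among calcium entry, store and pump genes and *Ppp3ca* among calcineurin genes, and primary cilium genes lie between -0.62 and 1.07.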

How the data were processed

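Per the methods and the labels, RNA of cultured bovine chondrocytes was amplified with a SMART-Seq v4 kit and sequenced as 75-base single-end reads. The authors aligned the reads to Ensembl build UMD 3.1 (release 88) with STAR 2.5.2b, took gene counts without using strand, and deposited these counts with no normalization. A deposited table of their own log2 fold changes and FDR values was used only to fill 8 blank gene names. From the counts, edgeR 4.0.16 (R 4.3.3) gave the default low-count filter, TMM scaling, dispersions by estimateDisp and the exact test named in the methods, with Benjamini–Hochberg FDR over 12857 genes and a threshold of 0.05. Exact test FDR values in the text are from this fit unless a left-out library is named. CPM are counts scaled to TMM-adjusted library size. Standard errors come from the negative binomial fit of each gene, and 95% intervals assume normal errors. Replicates of a zone differed by more than sampling noise (chi-square per degree of freedom 50.5 in SZCs, 245 in DZCs). Alternatives were the quasi-likelihood test with and without a replicate block, DESeq2 1.42.0, other filters, scalings and dispersions, and leaving out each library. The scripts were tested on simulated data.

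The genes described and the lists were chosen with earlier results of these data known. Named were the 9 genes, list genes past the threshold, at most 4 further genes of a list from its tested genes with the highest CPM, cell type markers, and the 3 tested genes nearest to *Pkd1* in pattern. *Trpv1*, *Trpa1*, *Mcoln3*, *Trpm3*, *Tmc8*, *P2ry1*, *P2rx6*, *Entpd2*, *Tsc2*, *Rab26*, *Ctu2*, *Mir1225*, *Pcolce2* and *Pls1* were named outside that rule, with values known. A gene that the rule also allows is not reported here. ATAC-Seq samples, transcript lengths and sequences were not used here. Symbols, in capitals in the counts, are written in title case.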

Additional observations from a re-analysis of the deposited data

How the results depend on the processing

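Under the 9 alternatives that use all libraries, the sign of the log2FC was the same for each of the 8 tested genes, and only the call of *Pkd1* changed. The quasi-likelihood test of edgeR called 0 genes (1126 at an unadjusted p below 0.05), with *Pkd1* at 1.43 (FDR 0.26). Hence it called 0 in either direction, 0 of the 9 genes and 0 genes of the related lists. With a replicate block, that test called 347 genes, 277 of them also among the 377, and 0 of the 9 (*Pkd1* at 1.44, FDR 0.0665). *Atp2b1* was also not called (FDR 0.077), and *Panx2* had a log2FC of 0.09. Nothing says that equal replicate numbers mark a shared joint, and across genes the same-numbered libraries' deviations correlated at 0.43. Library totals alone moved the median of all genes by 0.30 on the log2 scale and called 44 genes higher in DZCs and 2 genes of the related lists. Totals without *Col2a1* also called 2 genes of the lists. *Cacna1g* (exact test FDR 0.127 and 0.0985) and *Atp2b1* (0.0643 and 0.0581) were the calls lost under these 2 scalings. Under totals alone, 5 named list genes with a log2FC below 0 changed sign: *Panx2* (0.35), *Mcoln1* (0.25), *Tmem63a* (0.24), *Tulp3* (0.13) and *Atp2a2* (0.06). Totals without *Col2a1* gave *Panx2* 0.11, *Mcoln1* 0.04 and *Tmem63a* 0.05. The cause was not tested.

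Leaving out each library in turn gave 58 calls (without SZC replicate 1) to 2725 (without DZC replicate 2), 52 to 1607 higher in SZCs and 6 to 1118 higher in DZCs, with 0 to 3 of the 9 genes and 0 to 23 of the related lists. Without DZC replicate 2 the 3 were *Pkd1*, *Pkd2* and *Gja1*. The log2FC changed sign within these ranges: -0.01 to 0.38 for *Piezo1*, -0.45 to 0.71 for *Trpm7*, -0.17 to 1.17 for *Pkd2*, -0.17 to 0.23 for *Tsc2*, -0.66 to 0.89 for *Panx2*, -0.37 to 0.24 for *Mcoln1* and -0.22 to 0.08 for *Tmem63a*. With 2 libraries per zone, no exact permutation test can reach the threshold.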

Other observations

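The genes beside *Trpc1* went in opposite directions. In RefSeq's annotation of the later assembly ARS-UCD 2.0, *Trpc1* lies between *Pcolce2* and *Pls1*, both chosen with their values already seen. *Pcolce2*, which encodes an enhancer of procollagen processing, was at 118 and 109 CPM in SZCs and 33.7 and 30.6 CPM in DZCs, with a log2FC of 1.82 (s.e. 0.33, exact test FDR 2.14e-05). *Pls1*, an actin-bundling protein gene, was at 0.954 and 0.776 CPM in SZCs and 7.84 and 3.36 CPM in DZCs, with a log2FC of -2.68 (s.e. 0.71, exact test FDR 0.018). *Trpc1* itself, at -0.41, lay between them and did not pass. Over the alternatives and left-out libraries, the edgeR and DESeq2 FDR ranged from 1.52e-06 to 0.265 for *Pcolce2* and from 2.45e-06 to 1 for *Pls1*, with no change of sign. The log2FC of *Pls1* was -1.95 without DZC replicate 1 and -3.16 without DZC replicate 2.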
